A study of Carica papaya with 2 samples.

Results

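The set described here is made of abundant papaya leaf transcripts that stood at least 4-fold lower after freeze-thaw awakening but were still detected. RNA of Carica papaya leaf was sequenced in 2 libraries, 1 from leaf labelled as given the freeze-thaw awakening treatment and 1 from control leaf labelled as without it. The protocol text, which stands on both records, describes leaves soaked for 72 hours at 26 °C in a protective solution that held trehalose, dimethyl sulfoxide, glycol and glycerin. Cooling by 0.5 °C a day over 180 days to -60 °C and thawing at room temperature followed. In what follows, treated leaf and control leaf stand for these 2 libraries. The labels give no cultivar, plant age or number of plants, and do not say whether the treated RNA came from the thawed leaf or from later growth.

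A gene entered the set when the mean of its 2 values was at least 50 FPKM, its treatment value was above 0, and log2(FPKM + 1) in treated leaf was at least 2 below that in control leaf. FPKM stands for fragments scaled by transcript length and library total, the unit the deposited values were taken to have. These criteria chose 141 of 101199 genes, or 141 of the 2719 genes at that mean (5.19%). Each choice rested on the 2 values themselves, so the differences below describe the selection and were not tested. There was 1 library in each group, with no spread between replicates, and the differences are between these libraries rather than between conditions.

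The most abundant transcripts of a green leaf usually encode parts of photosynthesis, such as the small subunit of Rubisco and the chlorophyll-binding proteins of the light-harvesting antennae. Papaya leaf also carries latex vessels, known for papain and related cysteine proteases. Trehalose, glycerin, glycol and dimethyl sulfoxide are protectants that limit ice damage to cells. A transcript's level reflects both its synthesis and its decay, and in whole leaf fewer cells of a type and less RNA per cell cannot be told apart. The genes here carry only the names of a transcript assembly, which the files do not pair with gene names, so none could be assigned to any of these groups. The leaf label could not be checked against marker genes for the same reason.

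In treated leaf the 141 genes lay between 0.11 and 656 FPKM with a median of 22.1 FPKM, against 82.7 to 6281 FPKM with a median of 158 FPKM in control leaf. The ranges of the 2 libraries overlapped, although each gene was lower in treated leaf by the rule. The middle part of the set, between the quartiles, was at 11.6 to 42.2 FPKM in treated leaf and at 115 to 310 FPKM in control leaf. The median log2 difference was -2.67, beside -0.11 over all 2719 abundant genes. The median gene stood at 14.8% of its control value, with quartiles of 6.50% and 19.3%.

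**Figure D1:**
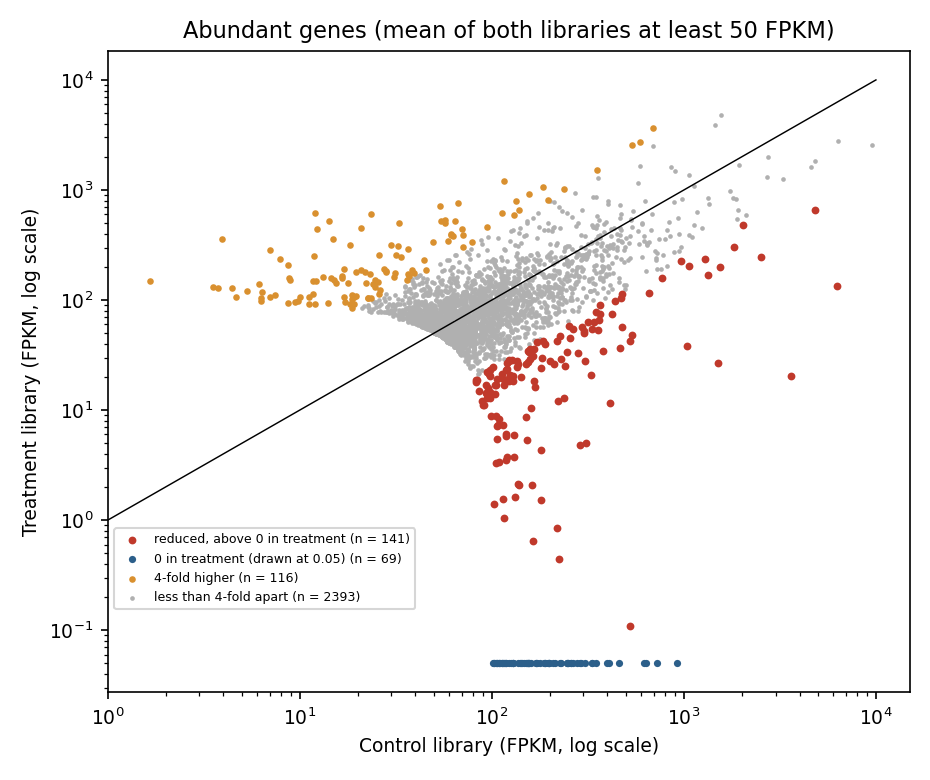
Treatment value (vertical axis, FPKM, log scale) against control value (horizontal axis, FPKM, log scale) for the 2719 genes averaging 50 FPKM or more over both libraries; the line marks equal values. The 141 reduced genes (red) lie below the cloud of 2393 genes less than 4-fold apart, and 69 further genes are listed at 0 in treated leaf.

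The set took up much less of the treatment library than of the control. Its genes held 0.974% of the summed FPKM of all genes in treated leaf and 7.24% in control leaf. In FPKM the sums were 6460 in treated leaf and 55437 in control leaf, a difference of -48976. Over all 40621 genes that were lower in treated leaf by any amount, the summed difference was -290921. The 141 genes made up 16.8% of it. They were 0.139% of all 101199 genes, a wider base than the 40621 lower ones. The rule chose abundant genes with large falls, so a large share follows from the selection and is given as description only. The whole treatment library summed to 86.6% of the control, and to 92.4% without the set. Leaving out only genes chosen as lower had to raise this percent, so nothing is read from the rise.

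The rule also shapes the position of these genes in the order of abundance, which is given here as description only. In treated leaf 2 of them were among the 100 highest genes and 15 among the 1000 highest, against 18 and 113 in control leaf. Their median rank was 6722 in treated leaf and 565 in control leaf. All 141 were inside the 2000 highest genes of the control, which the minimum mean and the 4-fold threshold together fixed. In treated leaf 22 were inside that range.

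The 12 members at 1000 FPKM or more in control leaf, out of 37 genes at that level, held 42.0% of the set's summed FPKM in treated leaf and 52.1% in control leaf. None of the 12 reached 1000 FPKM in treated leaf, where 9 were at 100 FPKM or more. The highest was TR31037|c0_g1, at 135 FPKM in treated leaf and 6281 FPKM in control leaf, where it was the third most abundant gene. Its log2 difference was -5.53, and it ranked 598 in treated leaf. Next by control value came a gene at 656 FPKM in treated leaf and 4833 FPKM in control leaf. It stood at 13.6% of its control value, near the median of the set, and was the highest member in treated leaf.

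The third, at 20.5 FPKM in treated leaf against 3606 FPKM in control leaf, stood at 0.567% of its control value. These neighbours in the control order thus lay far apart in treated leaf. Of the others, a gene at 26.7 FPKM in treated leaf and 1497 FPKM in control leaf was at 1.78%, and one at 38.0 FPKM in treated leaf and 1034 FPKM in control leaf was at 3.68%. Another, with 247 FPKM in treated leaf and 2522 FPKM in control leaf, was at 9.78%. The remaining 6 were between 12.5% and 23.8%, the last of these at 483 FPKM in treated leaf and 2027 FPKM in control leaf. The 12 members with the highest control values thus covered most of the range of the set in this measure.

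**Figure D2:**
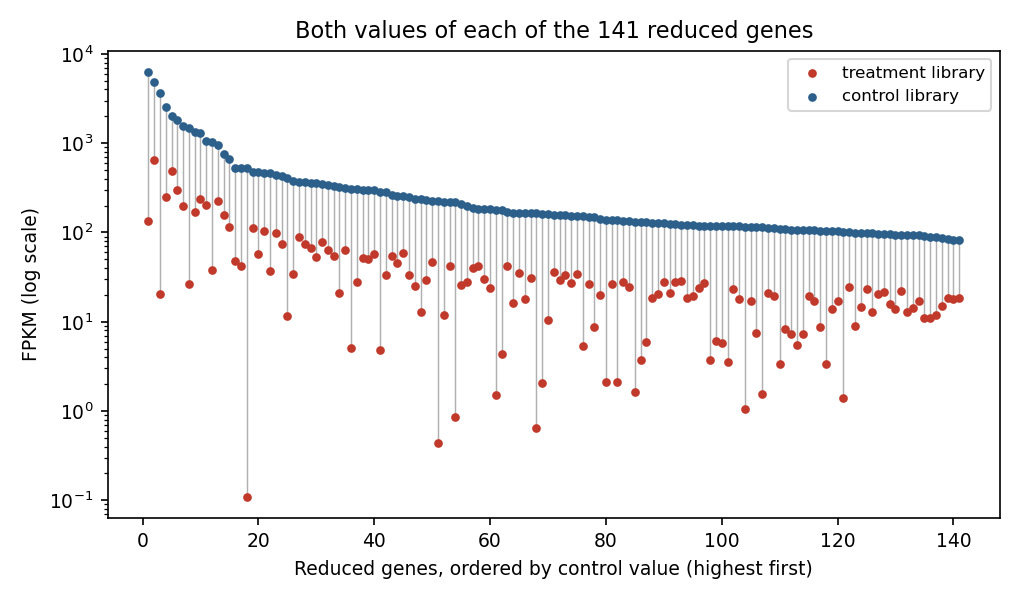
Treatment value (red) and control value (blue) of each of the 141 reduced genes, joined by a line, in FPKM on a log scale, with genes ordered by control value. Control values run smoothly down to 82.7 FPKM, while treatment values of genes with like control values scatter, with 4 below 1 FPKM.

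By level in control leaf, the medians of the treated value relative to the control value were as follows. The 19 genes at 80 to 100 FPKM in control leaf stood at a median of 16.6% of that level, with 8.86 to 23.2 FPKM in treated leaf. The 66 genes at 100 to 200 FPKM stood at a median of 14.4%, with 0.64 to 42.6 FPKM in treated leaf. At 200 to 500 FPKM in control leaf, 38 genes stood at a median of 15.8%, and at 500 to 1000 FPKM 6 genes stood at 13.4%. For the 12 at 1000 FPKM or more the median was 12.7%. Spearman's rho between the log2 difference and the control value was -0.08 across the 141 genes. This is a description across genes of the same 2 libraries. The control value enters both measures, the rule caps the ratio, and for genes under 100 FPKM in control leaf the minimum mean also sets a lowest treated value, so nothing is read from it.

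On the log2 scale the genes became fewer away from the threshold, with 89 genes at differences between -2 and -3, 20 between -3 and -4, 13 between -4 and -5, 13 between -5 and -6 and 6 beyond. In even steps of 2.5% of the control value, the lowest step spans several log2 units and held 18 genes. Those 18 summed to 212 FPKM in treated leaf and 14371 FPKM in control leaf, and 3 of them were at 1000 FPKM or more in control leaf. In treated leaf 15 of the 18 were below 10 FPKM, a level that may rest on few reads, since depth is unknown.

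**Figure D3:**
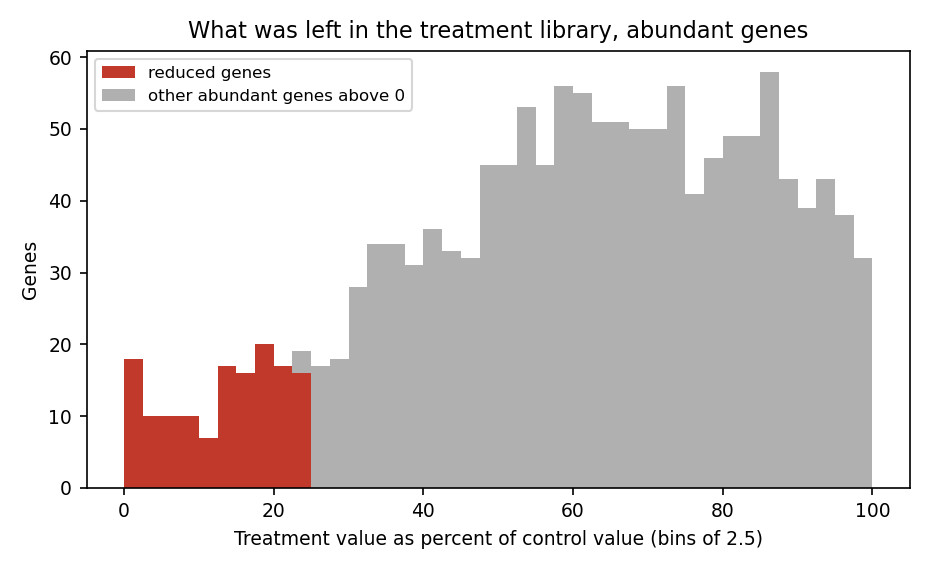
Number of abundant genes above 0 in treated leaf (vertical axis) by treatment value as a percent of control value, in steps of 2.5% up to 100% (horizontal axis). The reduced genes (red) fill the range up to 25%, with 18 genes in the lowest step, which covers the widest range of log2 differences.

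TR24040|c0_g1 had the largest difference, with 0.11 FPKM in treated leaf and 524 FPKM in control leaf and a log2 difference of -8.88. It was the 95th gene of the control and ranked 70907 among the 75277 genes above 0 in treated leaf, where the smallest value above 0 was 0.01 FPKM. It was thus barely above the listing at 0 that would have left it out of the set. The next-lowest treatment values were 0.44 FPKM for a gene at 225 FPKM in control leaf, 0.64 FPKM for a gene at 163 FPKM in control leaf and 0.85 FPKM for one at 217 FPKM. In all, 32 members were below 10 FPKM in treated leaf, with control values of 99.4 to 524 FPKM and a median of 125 FPKM. At the other end 30 members were still at 50 FPKM or more in treated leaf and 14 at 100 FPKM or more.

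At 8-fold or more (a log2 difference of -3 or below) there were 52 of the 141 genes, at 16-fold 32 genes, and at a log2 difference of -6 or below 6 genes. The members nearest to the threshold had 24.7 FPKM in treated leaf and 102 FPKM in control leaf, and 42.0 FPKM in treated leaf and 172 FPKM in control leaf. Just outside it were a gene at 191 FPKM in treated leaf and 764 FPKM in control leaf and one at 204 FPKM in treated leaf and 813 FPKM in control leaf, both with log2 differences of -1.99. The member nearest to the minimum mean averaged 50.4 FPKM over both libraries, and the nearest gene below it 49.9 FPKM.

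A feature the rule did not use was the number of contigs, the separate transcript sequences that the assembly gave for a gene. Of the 141 genes, 23 had 2 or more contigs (16.3%), against 1194 of the 2393 abundant genes less than 4-fold apart (49.9%). It was 47.6% over all 2719 abundant genes and 15.1% over all 101199 genes, most of which are of low abundance. The share was 42 of 116 (36.2%) in genes 4-fold or more higher, which were 4.27% of abundant genes, and 34 of 69 (49.3%) in abundant genes listed at 0 in treated leaf. The reduced genes were thus mostly single-contig genes, as were 11 of the 12 with the highest control values.

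The shares depended on level, and that of the reduced genes was the lower in each class compared. At means of 50 to 100 FPKM, 17.7% of 79 reduced genes and 58.0% of 1545 genes less than 4-fold apart had 2 or more contigs. At 100 to 200 FPKM the shares were 20% of 30 reduced genes and 37.0% of 543 genes. At 200 FPKM or more they were 9.38% of 32 reduced genes and 31.8% of 305 genes. Below the minimum mean, at 25 to 50 FPKM, genes that otherwise met the rule had 2 or more contigs in 38.5% of 130 cases, against 62.6% of 3217 genes less than 4-fold apart. Genes are not replicates, so no test was made, and contig length, which was not used here, may differ between these genes. Within the set the median log2 difference was -2.64 for the 23 genes with 2 or more contigs and -2.68 for the 118 with 1. At 16-fold or more lower were 26.1% of the former and 22.0% of the latter. Below 2.5% of the control value, 6 of 18 genes had 2 or more contigs, and from 2.5% to 5% 0 of 10 did.

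**Figure D4:**
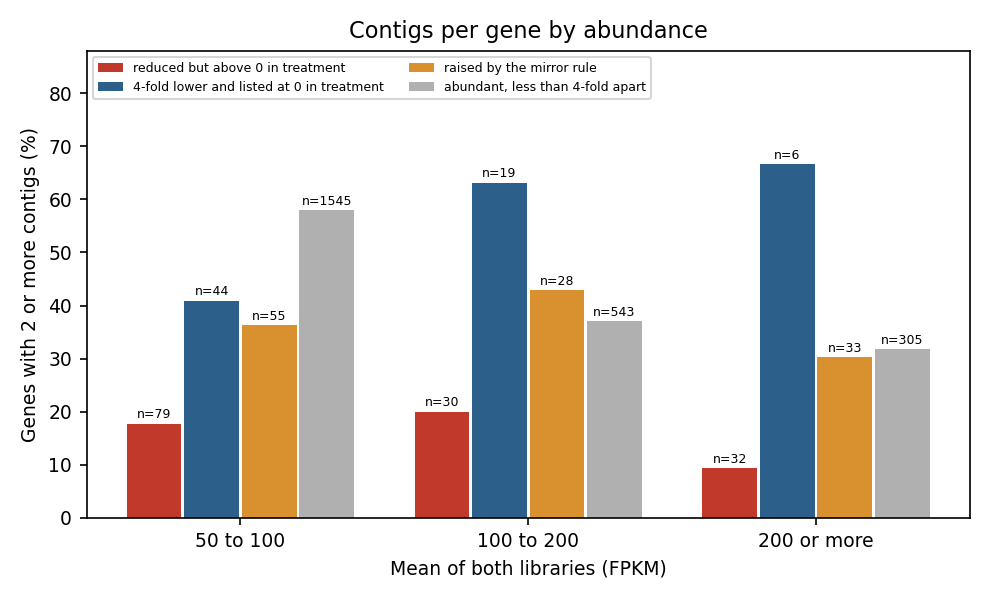
Percent of genes with 2 or more contigs (vertical axis) in 3 classes of mean FPKM (horizontal axis), for reduced genes, genes listed at 0 in treated leaf, genes 4-fold or more higher and genes less than 4-fold apart; n is the number of genes behind each bar. The red bars, between 9.38% and 20%, are the lowest of each class.

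The members were spread over the assembly. They lay in 133 components, groups of genes that the assembly joined by shared sequence, and 101 of them (71.6%) were the only gene of their component. That share was 69.0% for abundant genes less than 4-fold apart and 20.3% for those listed at 0 in treated leaf. A total of 7 components held more than 1 member, 6 with 2 members and 1 with 3, so these 15 genes need not be separate transcripts.

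Values of members of the same component were close in some cases and apart in others. In one pair the genes were at 17.0 and 14.5 FPKM in treated leaf and 115 and 98.0 FPKM in control leaf, with log2 differences of -2.69 and -2.67. In another they were at 3.53 and 3.75 FPKM in treated leaf and 118 and 119 FPKM in control leaf. Both pairs had close values within each library. The largest spread was in a pair at 20.8 and 27.1 FPKM in treated leaf and 327 and 154 FPKM in control leaf, whose log2 differences were 1.44 apart. The spread was under 0.2 in 3 of the 7 components and had a median of 0.54, all within differences that the rule bounded.

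The other genes of the members' components were not chosen by the rule, though they share sequence and both libraries with the members. There were 34, of which 32 in 25 components averaged 1 FPKM or more. Of these 32, 24 were lower in treated leaf by 2-fold or more (75.0%), 1 was higher by 2-fold or more (3.12%) and 7 lay within 2-fold. A single component supplied 5 of the 32, so they are not independent. Over all 38327 genes averaging 1 FPKM or more, 24.0% were lower by 2-fold or more and 12.3% higher. The median log2 difference of the 32 was -1.72 and the lowest -4.18. The 1 higher gene was at 4.64 FPKM in treated leaf and listed at 0 in control leaf.

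For a comparison at the same levels on both sides, only genes averaging 1 to 50 FPKM were counted. They were taken from components with a reduced gene and from components with an abundant gene less than 4-fold apart and no reduced gene. The former could also hold abundant genes less than 4-fold apart. The latter could hold genes 4-fold higher or listed at 0 in treated leaf, so the choice of components was not symmetrical. In the components of reduced genes 20 of 27 were lower by 2-fold or more (74.1%) and 1 was higher (3.70%), with a median log2 difference of -1.93. In the other components 66 of 753 were lower (8.76%) and 132 higher (17.5%), with a median of 0.23. The 27 genes lay in 23 components and the 753 in 467, so the genes on neither side are independent. Among those averaging 20 FPKM or more, which leaves out the lowest values, 9 of 12 were lower by 2-fold or more in components of reduced genes, against 19 of 206 (9.22%) in the other components. Most of the less abundant genes joined to a member by shared sequence were thus lower as well. Genes that share only the first part of the assembly name and lie in another component were closer to the background, with 61 of 203 lower by 2-fold or more (30.0%) and 22 higher (10.8%).

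**Figure D5:**
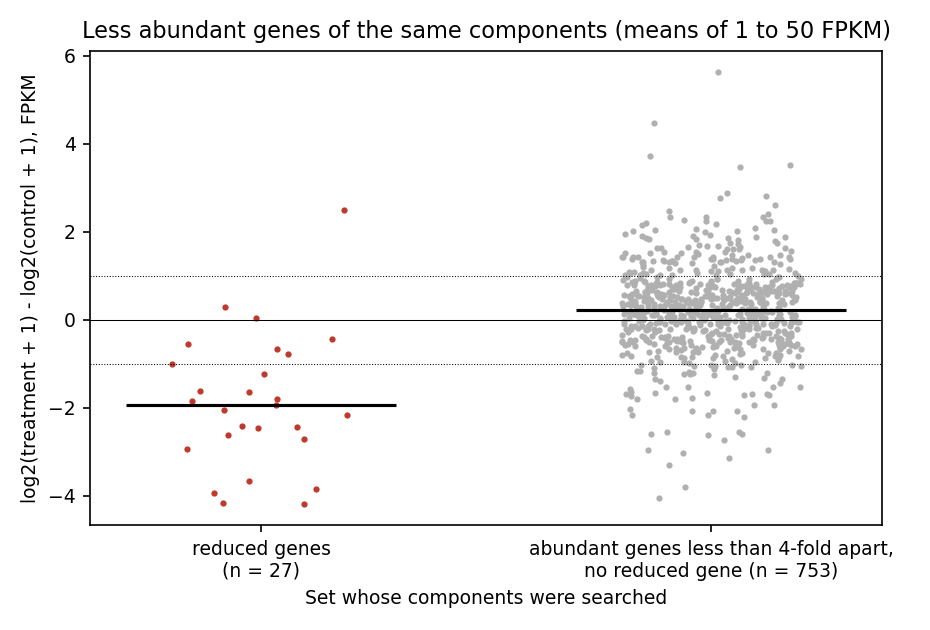
Log2 difference, treatment minus control on the log2(FPKM + 1) scale (vertical axis), of genes averaging 1 to 50 FPKM in the components of reduced genes (left, n = 27) and in components of abundant genes less than 4-fold apart that hold no reduced gene (right, n = 753). Black bars are medians, at -1.93 and 0.23, and dotted lines mark 2-fold.

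Of the 133 components, 106 held members only, so that the rule fixed their direction. All values were added in each of the 27 components that also held a gene outside the set. Of these sums 21 were lower in treated leaf by 4-fold or more and 26 by 2-fold or more, with a median log2 difference of -2.43, in which the members themselves are included. The sums add FPKM values of genes of different length and are a rough measure. The 1 component that was less than 2-fold lower summed to 226 FPKM in treated leaf and 411 FPKM in control leaf, a log2 difference of -0.86. In it the member was at 0.64 FPKM in treated leaf and 163 FPKM in control leaf, while its other gene was at 225 FPKM in treated leaf and 248 FPKM in control leaf. In the component with 3 members the sum was 441 FPKM in treated leaf and 1484 FPKM in control leaf, a log2 difference of -1.75. Its most abundant gene, which was not a member, stood at 158 FPKM in treated leaf and 457 FPKM in control leaf.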

How the data were processed

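The deposited files, 1 for each library, each listed 1 value for the same 156240 contigs. Per the submitters' processing notes, bcl2fastq 2.17 and RSEM 1.2.19 were used; which assembler and annotation were used is not given in the sources used here. The unit is not named, and the deposited values were taken as FPKM made by the authors; another length-scaled unit such as TPM over part of an assembly remains possible. Contigs of a gene repeated its value, so each of 101199 genes in 81733 components was used once. Contig numbers within genes and gene numbers within components had 0 gaps. Read counts and lengths were not used, so depth is unknown and no counting interval is given. Names matched 0 identifiers of the papaya RefSeq gene table, so no gene list was used.

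Differences are treatment minus control on log2(FPKM + 1), which understates those of low genes. With 1 library in each group there was no test. Members and comparisons were chosen with earlier results of these data known. The 2 named genes have the highest control value and the largest difference, since unannotated names are limited to 2. Python 3.11.15, pandas 2.3.3 and numpy 2.4.6 were used. The selection code was also run on altered values with known changes, without noise and well beyond both thresholds. That run checks the code only and says nothing about the selected genes. Alternatives were pseudocounts, scalings, minimum values, an 8-fold threshold, contigs as listed and 1 gene per component.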

Additional observations from a re-analysis of the deposited data

How the results depend on the processing

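No paired analysis was possible because each group had 1 library, and no replicate could be left out. The set of 141 genes numbered 109 to 149 genes with pseudocounts of 0.1 and 5, equal sums, trimmed mean scaling, a minimum treatment value of 10 FPKM or 1 gene per component. With every contig as listed there were 198 entries, which are the contigs of the same 141 genes and not further genes. The set numbered 271 genes at a minimum mean of 25 FPKM, 62 at 100 FPKM and 52 at 8-fold. These choices widen or narrow the rule. Equal sums multiplied treatment values by 1.16, shifted the median log2 difference over genes averaging 1 FPKM or more to 0.15, against -0.03 as deposited, and kept 115 of the 141 genes. The median log2 difference of the set was -2.73 with a pseudocount of 0.1, -2.57 with 5, -2.71 with equal sums and with trimmed mean scaling, -2.83 and -2.65 at minimum means of 25 and 100 FPKM, -4.41 at 8-fold, -2.49 with a minimum treatment value of 10 FPKM, -2.76 with contigs and -2.72 with 1 gene per component.

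In the same order of settings, the set's percent of summed FPKM in the treatment library was 0.988, 0.909, 0.713, 1.08, 1.11, 0.793, 0.152, 0.954, 0.412 and 1.04, and in the control 7.29, 7.00, 6.27, 7.61, 8.32, 5.99, 3.24, 6.59, 3.37 and 7.85. Members with 2 or more contigs made up 26.9% at a minimum mean of 25 FPKM and 40.4% with contigs as listed, which counts such genes repeatedly. The percent of other component genes at least 2-fold lower ran from 64.5% to 84.6%; 1 gene per component leaves none to count. The log2 difference of TR24040|c0_g1 was -11.28 with a pseudocount of 0.1 and -6.69 with 5, and that of TR31037|c0_g1 -5.53 and -5.48. With depth unknown, its limits have no interval here.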
